A study of Mus musculus with 27 samples.

Results

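The comparison described here is between mouse cortex that lost Bcl11a and Bcl11b together and cortex that lost Bcl11a alone, at embryonic day (E) 15.5. It rests on 6 of the 27 libraries of the series, chosen by genotype and age: 3 from Bcl11a/b-DCKO and 3 from Bcl11a-CKO. In Bcl11a-CKO the mice carry Emx1-Cre and Bcl11a Flox/Flox, and in Bcl11a/b-DCKO they carry Emx1-Cre, Bcl11a Flox/Flox and Bcl11b Flox/Flox, so the loss of Bcl11a is common to both groups and the floxed Bcl11b alleles separate them. All mice were C57BL/6, the controls were wildtype without these alleles, and total RNA was sequenced in bulk. Control libraries of E15.5 (3) and both mutants at E13.5 (3 libraries each, same genotypes) are given beside the results. A pair of the Bcl11a-CKO libraries shares a title number and differs by the letters R and L. They were summed, which leaves 2 units of Bcl11a-CKO and 3 of Bcl11a/b-DCKO. The control libraries hold a pair of the same kind, which leaves 2 control units. Every E15.5 Bcl11a-CKO and control title carries R or L, and no Bcl11a/b-DCKO title does. Whatever lies behind this label difference cannot be told apart from genotype. The series describes 3 mice per genotype and age but its labels do not tie libraries to animals. A p-value here thus speaks of the spread between units, pooled over the 6 embryonic groups of the model. Part of that spread may be technical.

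Bcl11a and Bcl11b encode related zinc-finger transcription factors that work with chromatin-remodelling complexes. The deep layers of the cortex are made first, with corticothalamic neurons settling in layer 6 and subcerebral neurons in layer 5, and callosal neurons of the upper layers follow. Bcl11b is known for its role in the corticospinal axons of layer 5, and Bcl11a for roles in deep-layer identity and in the migration of upper-layer neurons. Emx1-Cre recombines floxed alleles in dorsal forebrain progenitors, and their descendants inherit the change. GABAergic interneurons, microglia and blood vessels come from elsewhere and keep the floxed genes. In bulk RNA, fewer cells of a type and less RNA per cell cannot be told apart.

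The libraries held between 4359817 and 4855407 counts in Bcl11a-CKO and between 4841410 and 6955612 in Bcl11a/b-DCKO. In a principal component analysis of the 9 libraries of E15.5, the first component (41.8% of the variance) placed Bcl11a-CKO at -5.1 to -8.29, Bcl11a/b-DCKO at 41.2 to 45.3 and the control at -33.5 to -38.6. The sexes are mixed unevenly: Xist, the RNA of the inactive X chromosome, was at 3140 and 8.78 CPM (the count scaled to the size of its library) in the Bcl11a-CKO units and at 3317, 3196 and 3.93 CPM in the Bcl11a/b-DCKO units. Of the 514 X-linked genes tested, 17 passed the threshold between the mutants (3.31%, against 5.41% of all genes tested). The part of sex in the other results was not tested. Markers of the cortex were present in all 6 libraries, with the projection neuron factor Neurod6 at 986 and 969 CPM in the Bcl11a-CKO units and 935, 881 and 809 CPM in the Bcl11a/b-DCKO units.

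The floxed genes were read first. Bcl11b (chromosome 12, 107910403 to 108003602, mm10) stood at 349 and 374 CPM in the Bcl11a-CKO units and at 111, 117 and 100 CPM in the Bcl11a/b-DCKO units, against 324 and 333 CPM in the control. All 3 double mutant units lay below both single mutant units. The difference was -1.73 ± 0.26 (log2 fold change ± SE, Bcl11a/b-DCKO minus Bcl11a-CKO, adjusted p = 0.000865 by edgeR's quasi-likelihood test with Benjamini-Hochberg adjustment). Bcl11a (chromosome 11, 24078056 to 24174123), floxed in both groups, stood at 563 and 576 CPM in Bcl11a-CKO and at 714, 655 and 694 CPM in Bcl11a/b-DCKO, with 747 and 748 CPM in the control. The groups did not overlap, but the difference of 0.27 ± 0.12 did not pass the threshold (edgeR adjusted p = 0.277). It passed with only the 3 E15.5 groups in the fit (adjusted p = 0.0266) and with only the 2 mutant groups (0.0464), at a log2 fold change of 0.27 in both. Which exons are removed is not stated in the labels, so reads outside them still count toward either gene and the Bcl11a level does not check that label.

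**Figure D1:**
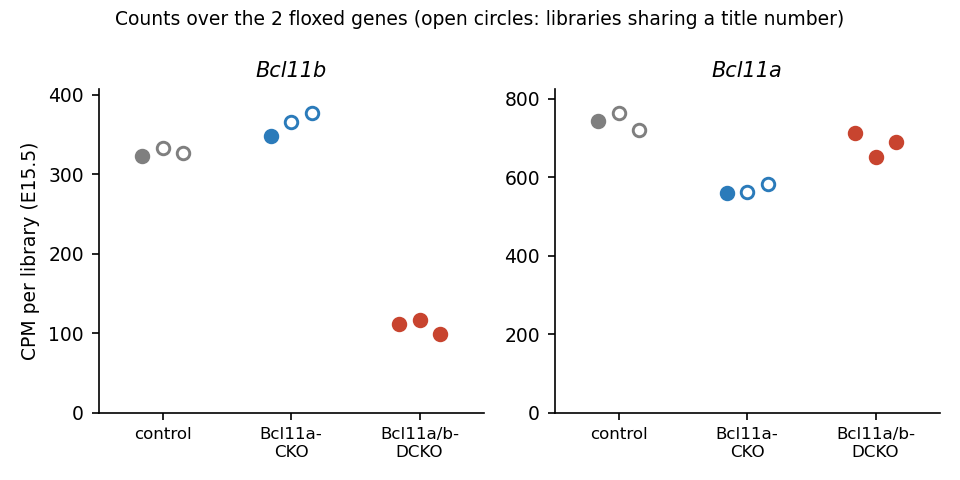
CPM of Bcl11b (left) and Bcl11a (right) in each E15.5 library of control, Bcl11a-CKO and Bcl11a/b-DCKO. Filled circles are libraries with a title number of their own, and open circles are libraries that share one. The 3 Bcl11a/b-DCKO libraries lie below all others for Bcl11b, and all libraries keep a high Bcl11a count.

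Across the 14947 genes tested, 809 (5.41%) differed between the mutants at an adjusted p under 0.05 (edgeR). They were split evenly, with 402 higher (2.69%) and 407 lower (2.72%) in Bcl11a/b-DCKO. More than 2-fold differences were found in 190 of the higher and 211 of the lower genes, and more than 4-fold ones in 73 and 82. The median log2 fold change was 0.93 in the higher and -1.03 in the lower genes, against 0.00 over all genes tested. For all 809 genes, the units of the 2 groups did not overlap. That holds for many genes that did not pass, since the double mutant units lay wholly above in 18% of all tested genes and wholly below in 17.9%. The number of calls rested on the small Bcl11a-CKO group: without its first replicate 418 genes passed, and without its pair 353, of which 142 were higher and 211 lower. In the same model, 289 genes (1.93%) differed between Bcl11a-CKO and control and 2394 (16%) between Bcl11a/b-DCKO and control, comparisons that share the control units.

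**Figure D2:**
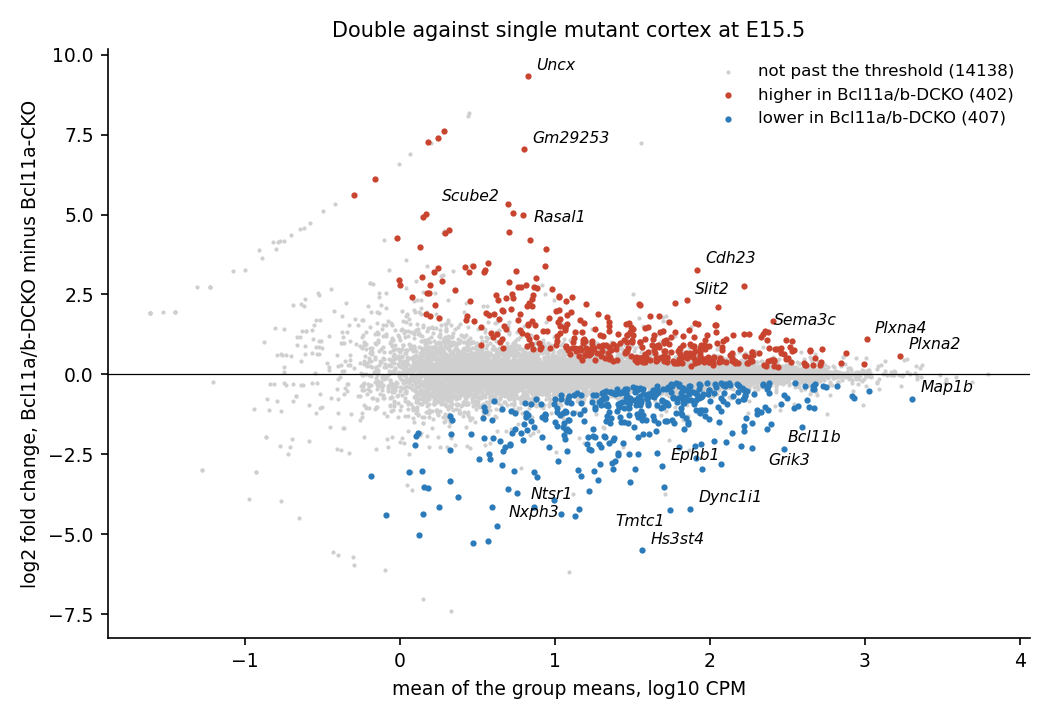
Each point is a gene tested at E15.5, with its mean CPM over the mutant groups (log10 axis) against the fitted log2 fold change, Bcl11a/b-DCKO minus Bcl11a-CKO. Genes in red (402) were higher and genes in blue (407) lower at an adjusted p under 0.05, and the straight line of points at the upper left holds genes with no counts in Bcl11a-CKO, whose fitted fold change is not a measured size. Genes with no counts in either mutant are not drawn.

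Layer 6 corticothalamic genes were lower together. Of 12 such genes in the list, all tested, 10 were lower (83.3%, against 2.72% of all genes tested) and 0 higher. Their median log2 fold change was -1.75. The list was chosen with earlier results of these data known, so this share is a description and not a test. Over the alternatives that leave out a library or the pair, 8 to 10 members were lower past the threshold, and in each of the other alternatives 10 were. Their summed level was 1516 and 1592 CPM in the Bcl11a-CKO units and 832, 768 and 719 CPM in the Bcl11a/b-DCKO units, with 2059 and 2017 CPM in the control, so the single mutant lay between the others. The members that moved span enzymes, receptors and transcription factors.

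Hs3st4 (chromosome 7, 123982869 to 124398989), an enzyme that adds 3-O-sulfate groups to heparan sulfate, was the lowest of the list. It stood at 65.5 and 78.5 CPM in the Bcl11a-CKO units and at 1.7, 1.63 and 1.43 CPM in the Bcl11a/b-DCKO units, with 98.7 and 116 CPM in the control. The double mutant units lay close together near 0, a 45.1-fold difference (log2 -5.49 ± 0.46, edgeR adjusted p = 1.58e-05). Ntsr1 (chromosome 2, 180499976 to 180544980), the neurotensin receptor that marks corticothalamic neurons, stood at 34.2 and 27.3 CPM in Bcl11a-CKO and at 2.76, 2.22 and 2.32 CPM in Bcl11a/b-DCKO. In the control it reached 65.1 and 77.5 CPM, so both mutants lay below the control and the double mutant lay 12.6-fold below the single one (log2 -3.65 ± 0.24, edgeR adjusted p = 5.07e-07). Nxph3, a secreted ligand of neurexins, had the same order, with 29.7 and 25.3 CPM in Bcl11a-CKO, 1.06, 1.63 and 1.61 CPM in Bcl11a/b-DCKO and 78.1 and 66.2 CPM in the control.

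Regulatory genes of the list were lower too. Zfpm2, a cofactor of GATA factors, fell from 39.9 and 44.9 CPM in Bcl11a-CKO to 4.89, 5.48 and 8.93 CPM in Bcl11a/b-DCKO (log2 -2.72 ± 0.21). Tle4, a Groucho corepressor, stood at 97.6 and 89.9 CPM in Bcl11a-CKO and at 40.4, 40.1 and 36.2 CPM in Bcl11a/b-DCKO, with 188 and 231 CPM in the control (log2 -1.27 ± 0.14, edgeR adjusted p = 6.22e-05). Rprm, a p53-induced cell cycle protein, stood at 95.4 and 108 CPM in Bcl11a-CKO and at 37.4, 43.2 and 38.6 CPM in Bcl11a/b-DCKO (log2 -1.36 ± 0.12). As in all 809 genes past the threshold, none of these 3 overlapped between the groups. The other members past the threshold were chosen for naming after their values were seen: the kainate receptor subunit Grik3 (293 and 328 CPM against 52.3, 68.9 and 67.3), the synaptotagmin Syt6, and the transcription factors Foxp2 and Sox5, with log2 fold changes of -2.30, -2.04, -1.47 and -0.91. Tbr1, the T-box factor that specifies layer 6, did not follow them: it stood at 420 and 424 CPM in Bcl11a-CKO and at 442, 385 and 359 CPM in Bcl11a/b-DCKO (log2 -0.09 ± 0.14, edgeR adjusted p = 0.854). Kcnab1, a potassium channel subunit and the other member not past the threshold, had a log2 fold change of -0.96 (edgeR adjusted p = 0.374).

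**Figure D3:**
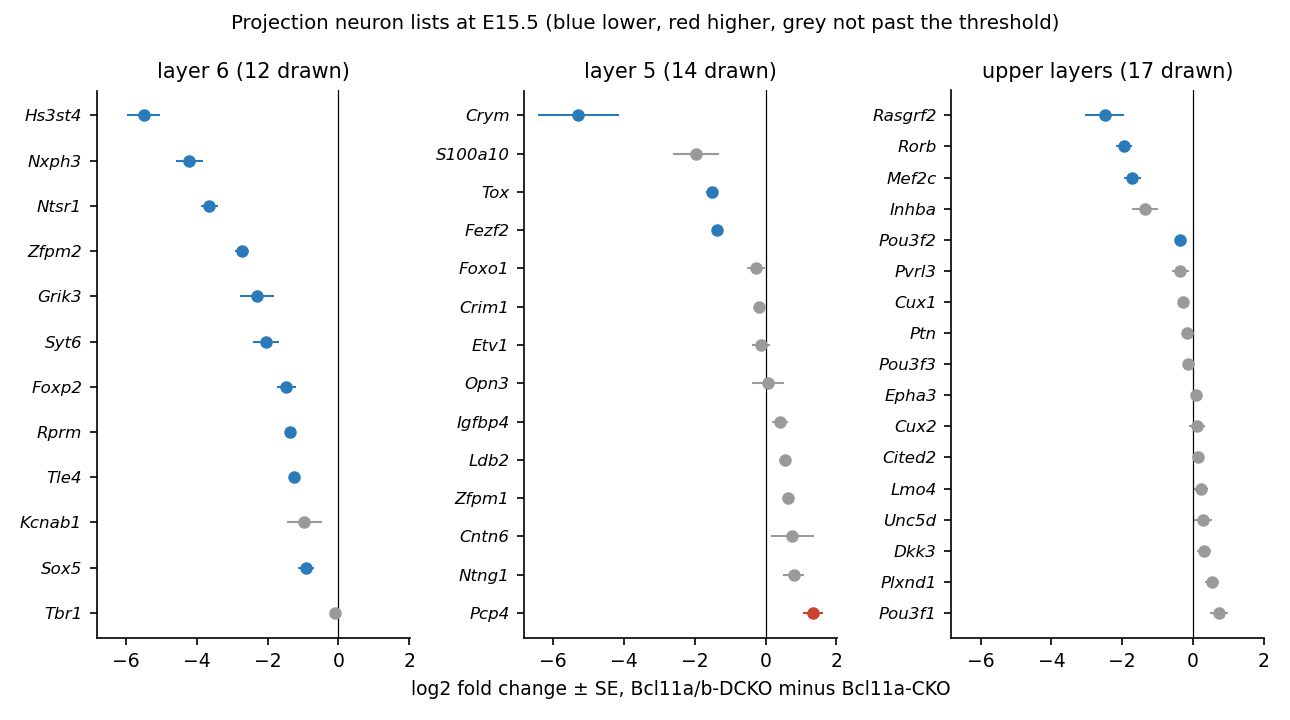
Log2 fold change with its standard error, Bcl11a/b-DCKO minus Bcl11a-CKO at E15.5, for tested genes of the layer 6, layer 5 and upper-layer lists, of which 1 upper-layer gene is not drawn. Blue points were lower past the threshold, red points higher, and grey points did not pass. In the layer 6 list 10 of 12 genes are blue, in the layer 5 list 3 of 14, and in the upper-layer list 4 of the 17 drawn.

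Layer 5 genes did not move one way. Of 14 tested, 3 were lower (21.4%) and 1 was higher (7.14%), against 2.72% and 2.69% of all genes tested. Their median log2 fold change was -0.03. Fezf2 (chromosome 14, 12341892 to 12345865), the zinc-finger factor that specifies subcerebral neurons, stood at 248 and 248 CPM in the Bcl11a-CKO units, at 89.9, 97.9 and 99.8 CPM in the Bcl11a/b-DCKO units and at 257 and 235 CPM in the control. The single mutant thus stood at the control level and the double mutant 2.58-fold lower (log2 -1.37 ± 0.11, edgeR adjusted p = 3.41e-06). Tox, an HMG-box factor, stood at 79.3 and 95 CPM in Bcl11a-CKO and at 36.8, 30.4 and 24.5 CPM in Bcl11a/b-DCKO (log2 -1.52 ± 0.16). Crym, a thyroid-hormone-binding protein, had 63 counts over the Bcl11a-CKO units and 2 over the Bcl11a/b-DCKO units, a ratio of 39.7 with an exact 95% interval of 10.5 to 335 that covers counting error only. Its units were 9.02 and 2.68 CPM against 0, 0 and 0.357 CPM, and its call was lost without Bcl11a-CKO replicate 1 (edgeR adjusted p = 0.11), without Bcl11a/b-DCKO replicate 2 (0.064) and with limma-voom (0.117). Its log2 value of -5.29 became -4.31 without Bcl11a-CKO replicate 1, -6.03 without the Bcl11a-CKO pair, -4.65 without Bcl11a/b-DCKO replicate 2 and -8.03 without Bcl11a/b-DCKO replicate 3. Pcp4, a calmodulin-binding protein of layer 5 neurons, was the one higher member, at 16.6 and 18.1 CPM in Bcl11a-CKO and 48.7, 48 and 35.3 CPM in Bcl11a/b-DCKO, and its call too was lost without Bcl11a-CKO replicate 1 (edgeR adjusted p = 0.11).

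Of 18 callosal and upper-layer genes tested, 5 were lower (27.8%, against 2.72% of all genes tested) and 0 higher. The list had a median log2 fold change of -0.16, and 4 of the 5 lower genes are described. Rorb, a nuclear receptor of layer 4 neurons, stood at 24.9 and 32.4 CPM in Bcl11a-CKO and at 9.36, 6.52 and 6.78 CPM in Bcl11a/b-DCKO (log2 -1.95 ± 0.24). Mef2c, a MADS-box factor, stood at 112 and 97.4 CPM against 34, 30.4 and 31.4 CPM (log2 -1.71 ± 0.24). Their edgeR adjusted p-values were 0.00014 and 0.000577, and like every gene past the threshold they were clear of overlap. The calls of Rasgrf2, a Ras exchange factor (log2 -2.50), and Pou3f2, a POU factor (log2 -0.37), were lost in 4 and 5 of the 7 alternatives that leave out a unit or library, and 2 to 4 of the 18 genes were lower over those alternatives. The standard upper-layer factors Cux1 (log2 -0.27, edgeR adjusted p = 0.0579) and Cux2 (0.12, adjusted p = 0.883) did not pass.

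Lists of earlier cell states and early-born cells are read against 5.41% of all genes called. The 26 cell cycle genes had 0 calls in either direction, by edgeR, DESeq2, limma-voom and each other alternative, and 0 at an unadjusted p under 0.05. Their median log2 fold change was small at -0.09, but 21 were negative and 5 positive. The Bcl11a/b-DCKO units lay wholly below for 8 of them and wholly above for 0, against 17.9% and 18% of all genes tested. Summed, the list stood at 2109 CPM in both Bcl11a-CKO units and at 1868 to 2075 CPM in Bcl11a/b-DCKO. Mki67, the proliferation antigen, overlapped, at 267 and 288 CPM in Bcl11a-CKO against 296, 281 and 263 CPM in Bcl11a/b-DCKO. Of 18 radial glia genes 1 was lower, the receptor phosphatase Ptprz1 (577 and 586 CPM against 274, 272 and 319, log2 -1.01 ± 0.11). Pax6 and Sox2, the progenitor factors, had log2 fold changes of -0.10 and 0.01. Of 12 intermediate progenitor genes 1 was higher, the Notch-modifying glycosyltransferase Mfng (log2 0.45, a call lost in 3 of the 7 alternatives that leave out a unit or library), and Eomes, their T-box factor, did not pass (0.21, edgeR adjusted p = 0.467). Of 6 subplate genes 0 passed by any of these tools, and 0 had an unadjusted p under 0.05. Among 10 Cajal-Retzius genes, the basic helix-loop-helix factor Nhlh2 was higher (23 and 20.4 CPM against 39.8, 40.1 and 33.7, log2 0.81). The secreted glycoprotein Reln was lower, at 227 and 187 CPM in Bcl11a-CKO and 121, 153 and 155 CPM in Bcl11a/b-DCKO, with 449 and 479 CPM in the control. The call of Nhlh2 was lost without the Bcl11a-CKO pair (adjusted p = 0.134), and that of Reln in 6 of the 7 alternatives that leave out a unit or library.

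General neuronal genes moved in both directions. Of 20 tested, 2 were higher (10%) and 5 lower (25%), against 2.69% and 2.72% of all genes tested. Their median log2 fold change was -0.17. The vesicular glutamate transporters moved apart: Slc17a6 (VGLUT2) stood at 64.1 and 71.6 CPM in Bcl11a-CKO and at 129, 118 and 107 CPM in Bcl11a/b-DCKO. Slc17a7 (VGLUT1) stood at 48.9 and 56.4 CPM in Bcl11a-CKO and at 28.7, 28.3 and 24.1 CPM in Bcl11a/b-DCKO. The former was thus higher (log2 0.80 ± 0.13, edgeR adjusted p = 0.00157) and the latter lower (-0.97 ± 0.18, adjusted p = 0.00429, and 0.0811 without the Bcl11a-CKO pair). Snap25, a SNARE protein of synaptic vesicle release, was lower at 146 and 140 CPM against 57, 51.4 and 54.6 CPM (log2 -1.40 ± 0.23). The calcium sensor Syt1 (log2 -0.93), the neurofilament Nefm (-0.67) and the growth-cone protein Gap43 (-0.55) were lower as well, and the proneural factor Neurod1 was higher, at 81.2 and 69.7 CPM against 147, 165 and 130 CPM. Without the Bcl11a-CKO pair 1 gene of the list was lower, Snap25. Mapt, the tau gene, ran unevenly between the single mutant units, at 378 and 1292 CPM, against 1170, 1133 and 1302 CPM in Bcl11a/b-DCKO.

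Axon guidance genes moved both ways, ligands first. Of 24 ligand genes tested, 4 were higher (16.7%) and 2 lower (8.33%), against 2.69% and 2.72% of all genes tested. Their median log2 fold change was 0.12. Slit2 (chromosome 5, 47983138 to 48307733), a secreted repellent read by Robo receptors, stood at 25.4 and 22.5 CPM in the Bcl11a-CKO units and at 120, 120 and 117 CPM in the Bcl11a/b-DCKO units, with 10.8 and 11.2 CPM in the control. The 3 genotypes formed separate steps and the mutants differed 5-fold (log2 2.32 ± 0.10, edgeR adjusted p = 1.85e-08). Sema3c, a semaphorin read by neuropilins and plexins, was graded in the same order, with 31.8 and 38.1 CPM in the control, 141 and 119 CPM in Bcl11a-CKO and 349, 340 and 297 CPM in Bcl11a/b-DCKO. Its log2 fold change was 1.34 ± 0.24, and its adjusted p moved from 0.00303 to 0.074 without the Bcl11a-CKO pair. Efnb2, a membrane-bound ephrin, was higher by 0.29 on the log2 scale, and Sema3d, another secreted semaphorin, by 1.83 (0.712 and 0.643 CPM against 2.55, 1.78 and 3.03). Rgma, the ligand of neogenin, was lower, with 121 and 116 CPM in Bcl11a-CKO and 43.8, 63.4 and 55.2 CPM in Bcl11a/b-DCKO (log2 -1.12 ± 0.16). Sema6a, a transmembrane semaphorin, was lower by -0.55 on the log2 scale. The calls of Efnb2, Sema3d and Sema6a were lost in 3, 6 and 5 of the 7 alternatives that leave out a unit or library. In the 7 other alternatives they were lost in 1, 4 and 2. Those of Sema3d included DESeq2 (adjusted p = 0.0893) and limma-voom (adjusted p = 0.0597).

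Receptors had 7 higher (28%) and 4 lower (16%) among 25 tested, against 2.69% and 2.72% of all genes tested. The list had a median log2 fold change of 0.13. Ephb1 (chromosome 9, 101922128 to 102354693), a receptor of B-class ephrins, was the lowest, at 86.4 and 87.3 CPM in Bcl11a-CKO and 13.4, 13.8 and 8.57 CPM in Bcl11a/b-DCKO. The control stood at 87.1 and 96.4 CPM, so the single mutant was near the control and the double mutant 7.28-fold below the single one (log2 -2.86 ± 0.15, edgeR adjusted p = 9e-08). Ephb3, of the same class, was higher, at 19.7 and 15.6 CPM in Bcl11a-CKO against 41.7, 42.9 and 37.7 CPM in Bcl11a/b-DCKO. Receptors of 1 class thus moved in opposite directions. Among the plexins, the semaphorin receptors, Plxna4 was higher at 632 and 673 CPM in Bcl11a-CKO against 1543, 1395 and 1294 CPM in Bcl11a/b-DCKO. Plxna2 was higher at 1353 and 1351 CPM against 1995, 2018 and 2081 CPM, and Plxna1 was lower at 379 and 364 CPM against 214, 229 and 264 CPM. The calls of Plxna4 and Plxna2 were lost without Bcl11a-CKO replicate 1 (edgeR adjusted p = 0.0872 and 0.151).

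The netrin receptors also split. Unc5b, which mediates repulsion, stood at 46.5 and 36.2 CPM in Bcl11a-CKO and at 85.1, 87.4 and 110 CPM in Bcl11a/b-DCKO (log2 1.20 ± 0.14). Dcc, which mediates attraction, stood at 134 and 125 CPM in Bcl11a-CKO and at 75.9, 76.9 and 64.3 CPM in Bcl11a/b-DCKO (log2 -0.84 ± 0.12). Both differences passed the threshold (edgeR adjusted p = 0.000136 and 0.000478), and as for every gene past it the units did not overlap. Neo1, a receptor of netrins and of Rgma, was higher (log2 0.79 ± 0.14) at 391 and 389 CPM against 588, 698 and 739 CPM. Nrp2 (0.93) and Epha8 (1.44) were higher and Epha7 (-0.79) was lower on the log2 scale. The Slit receptors Robo1 and Robo2 did not pass (log2 -0.41 and -0.15, edgeR adjusted p = 0.568 and 0.789). Over the alternatives that leave out a unit or library, 3 to 8 receptors were higher and 3 to 4 lower.

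**Figure D4:**
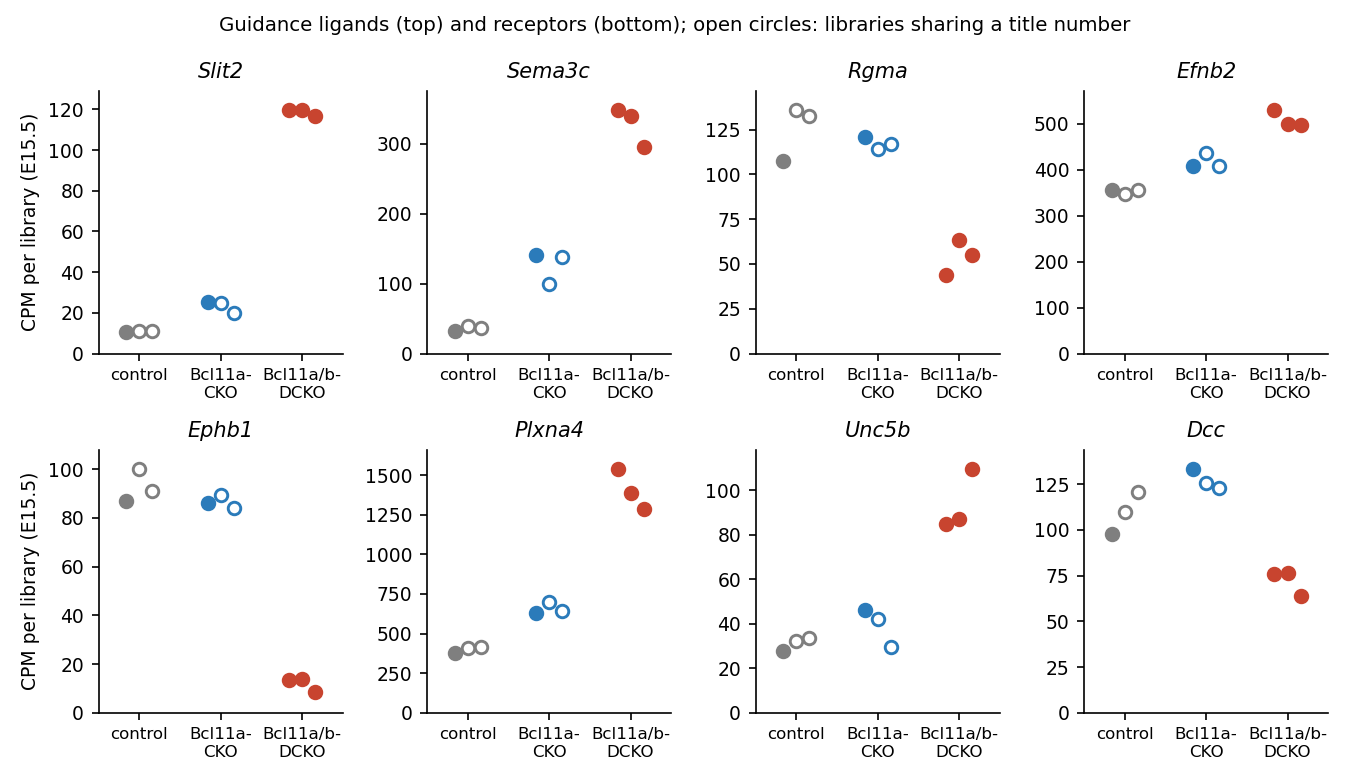
CPM in each E15.5 library for 4 guidance ligands (top row) and 4 receptors (bottom row) in control, Bcl11a-CKO and Bcl11a/b-DCKO. Open circles are libraries that share a title number. Slit2 and Sema3c are lowest in control and highest in Bcl11a/b-DCKO, with Bcl11a-CKO between, whereas the Ephb1 and Rgma levels of Bcl11a-CKO lie near the control and those of Bcl11a/b-DCKO lie below.

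Cell adhesion genes changed in both directions at about equal numbers. Of 25 cadherins and protocadherins, 5 were higher and 5 lower (20% each), against 2.69% and 2.72% of all genes tested. Their median log2 fold change was 0.03. Cdh23, an atypical cadherin known from the tip links of hair cells, stood at 28.7 and 5.04 CPM in Bcl11a-CKO and at 118, 170 and 157 CPM in Bcl11a/b-DCKO, with 1 and 0.585 CPM in the control. The single mutant units were uneven and the double mutant units lay above both (log2 3.28 ± 0.51, edgeR adjusted p = 0.0011). The log2 value was 4.86 without Bcl11a-CKO replicate 1 and 2.37 without its pair. Pcdh10 (109 and 88.4 CPM against 248, 211 and 246) and Cdh4 (221 and 247 CPM against 443, 423 and 415), both homophilic adhesion proteins, were higher too. Pcdh20 and Pcdh17 were higher by 1.84 and 0.96 on the log2 scale, and the calls of both were lost without the Bcl11a-CKO pair (edgeR adjusted p = 0.0547 and 0.0805). Pcdh9 (-1.28), Cdh6 (-0.89), Cdh11 (-0.75), Cdh2 (-0.36) and the planar polarity cadherin Celsr2 (-0.35) were lower on the same scale. Without the pair, 1 gene of the list was lower past the threshold.

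Of 20 other neuronal adhesion genes, 2 were higher (10%) and 4 lower (20%), against 2.69% and 2.72% of all genes tested. The list had a median log2 fold change of -0.14. Tnr, the matrix protein tenascin-R, stood at 41.5 and 45.6 CPM in Bcl11a-CKO and at 7.44, 8.29 and 7.85 CPM in Bcl11a/b-DCKO (log2 -2.47 ± 0.35). Nlgn1, a postsynaptic partner of neurexins, stood at 70.7 and 68.4 CPM against 17.4, 24.9 and 18.7 CPM (log2 -1.76 ± 0.18). The contactins Cntn1 (log2 -1.08) and Cntn3 (-1.07) were lower as well, and their calls were lost in 3 and 6 of the 7 alternatives that leave out a unit or library. The contactin-associated genes Cntnap5a (2.85 and 3.54 CPM against 17, 18.8 and 18.6) and Cntnap4 (18.8 and 21.9 CPM against 46.1, 62 and 59.1) were higher.

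Genes of excitability were divided. Of 30 voltage-gated channel genes, 4 were higher (13.3%) and 3 lower (10%), against 2.69% and 2.72% of all genes tested. Their median log2 fold change was 0.00. Cacna1e, the R-type calcium channel, stood at 284 and 232 CPM in Bcl11a-CKO and at 69.5, 77.9 and 76.4 CPM in Bcl11a/b-DCKO (log2 -1.78 ± 0.28). Scn1a, a sodium channel, stood at 38.5 and 41 CPM in Bcl11a-CKO and at 124, 117 and 125 CPM in Bcl11a/b-DCKO (log2 1.61 ± 0.28). These 2 calls held in each of the 7 alternatives that leave out a unit or library (highest edgeR adjusted p = 0.0222 and 0.0439), and those of the sodium channel Scn9a (log2 1.22) and the potassium channels Kcnd3 (1.65), Kcna1 (-1.83) and Kcnq5 (-1.36) did not. Kcnd3 was uneven, with 1 library apart from the others, at 27.5 and 26 CPM in Bcl11a-CKO and 40.4, 159 and 50.2 CPM in Bcl11a/b-DCKO, and its log2 value was 0.76 without Bcl11a/b-DCKO replicate 2. Of 31 transmitter receptor genes, 1 was higher (3.23%, near the 2.69% of all genes tested) and 4 lower (12.9%, against 2.72%). The list had a median log2 fold change of -0.17. Cnr1, the cannabinoid receptor of the brain, stood at 281 and 274 CPM in Bcl11a-CKO, at 86.3, 99.7 and 105 CPM in Bcl11a/b-DCKO and at 284 and 308 CPM in the control (log2 -1.52 ± 0.11, edgeR adjusted p = 1.65e-06). The AMPA receptor subunits Gria3 (66.7 and 62.1 CPM against 15.7, 18.2 and 18.4) and Gria2 (1040 and 1091 CPM against 679, 622 and 629) and the nicotinic subunit Chrna7 (log2 -1.03) were lower. Cnr1 and Gria3 kept their call in each of the 7 alternatives that leave out a unit or library, and Gria2 and Chrna7 lost theirs in at least 1.

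Among the 12 genes lowest in Bcl11a/b-DCKO by fitted fold change, with at least 5 CPM in the higher group, were 3 enzymes of 1 family, the heparan sulfate 3-O-sulfotransferases. Besides Hs3st4 these were Hs3st3b1 (6.65 and 9.75 CPM in Bcl11a-CKO against 0.638, 0 and 0.357) and Hs3st2 (18.5 and 19 CPM against 1.06, 1.93 and 0.536). The call of Hs3st2 was lost with DESeq2 (adjusted p = 0.0746). The family members were noticed after their values were seen, and no test of the family was made. Dync1i1, an intermediate chain of the dynein motor, stood at 137 and 148 CPM in Bcl11a-CKO and at 7.44, 6.37 and 9.46 CPM in Bcl11a/b-DCKO. Tmtc1, an O-mannosyltransferase of the endoplasmic reticulum, stood at 94.5 and 115 CPM against 5.53, 4.89 and 6.43 CPM. They were 18.4-fold and 18.8-fold lower in the double mutant, and the control stood at 146 and 186 CPM for Dync1i1 and at 156 and 175 CPM for Tmtc1. Mctp1, a calcium-binding membrane protein, had 96 counts in Bcl11a-CKO and 3 in Bcl11a/b-DCKO, a ratio of 40.3 (exact 95% interval 13.4 to 199). Pappa2, a protease of insulin-like growth factor binding proteins (log2 -4.42), the calcium-binding protein Necab1 (-4.36), Jakmip3 (-4.14) and Mlip (-4.14) complete the 12 with Crym and Nxph3. Leaving out 1 Bcl11a/b-DCKO library moved the fitted fold changes of 5 of these genes besides Crym by over 1.5 times. In log2 values, Jakmip3 moved to -4.92 without replicate 3, and Mlip to -4.86 and Hs3st3b1 to -5.52 without replicate 1. Without replicate 2, Hs3st3b1 moved to -4.05, Hs3st2 to -4.55 and Mctp1 to -8.44.

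At the other end, Uncx (chromosome 5, 139543494 to 139548179), a homeobox factor, had 0 counts over the Bcl11a-CKO units and 228 over the Bcl11a/b-DCKO units. It stood at 12.8, 12.6 and 14.8 CPM in the latter and at 0 in both control units, so it was at least 60.4-fold higher in the double mutant, taking a floor of 3 counts over the group. Cyp26b1, which degrades retinoic acid, had 3 counts against 167, a ratio of 44.2 (exact 95% interval 14.9 to 217), and its call was lost without the Bcl11a-CKO pair (edgeR adjusted p = 0.0564). Gm29253 had 1 count against 210, a ratio of 167 with a wide interval of 29.6 to 6618, and shares exonic bases with Abcb6 and Atg9a. These genes were near absent in Bcl11a-CKO and low but present in each Bcl11a/b-DCKO unit. Scube2, a secreted protein of hedgehog signalling, stood at 0.475 and 0.214 CPM in Bcl11a-CKO and at 10.2, 11.4 and 9.82 CPM in Bcl11a/b-DCKO (log2 5.04 ± 0.42). Rasal1, a Ras GTPase-activating protein, stood at 0.237 and 0.429 CPM against 13.4, 12.1 and 10.9 CPM (log2 4.97 ± 0.56). The kinase Map3k5 (log2 3.91), the adenylyl cyclase Adcy8 (4.22), the X-linked nuclear receptor Nr0b1 (3.38), the popeye protein Bves (3.38), Mycbpap (4.46) and Gm28756 (3.49) complete the 12 with Cdh23. The calls of Adcy8 and Bves were lost in 1 of the 7 alternatives that leave out a unit or library, that without the pair. The Gm29253 call was lost in 6 of the 7 and with limma-voom (adjusted p = 0.0784). Fitted fold changes of these low genes moved by over 1.5 times when Bcl11a-CKO libraries were left out, given here as log2 values. Without the pair, Scube2 moved to 4.40, Map3k5 to 3.27, Adcy8 to 3.44 and Bves to 4.40. Gm29253 moved to 9.18 and Mycbpap to 8.84 there, where the remaining Bcl11a-CKO unit is at 0 for Mycbpap. Without replicate 1 Adcy8 moved to 4.86, without replicate 2 Bves moved to 2.77 and Cyp26b1 from 5.34 to 6.19, and without replicate 3 Bves moved to 5.35, Nr0b1 to 4.12 and Gm29253 from 7.06 to 9.17.

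Genes with the highest CPM, a unit not corrected for gene length, differed by less. Map1b, a microtubule-associated protein of growing axons, stood at 2504 and 2566 CPM in Bcl11a-CKO and at 1465, 1449 and 1574 CPM in Bcl11a/b-DCKO (log2 -0.76 ± 0.07, edgeR adjusted p = 1.99e-05). Next to it, Chd3 (-0.54), Gria2 (-0.73), the actin-sequestering Tmsb4x (-0.67), the latrophilin Adgrl1 (-0.36) and Zfp462 (-0.39) had the highest CPM among the lower genes, given with their log2 fold changes. Plxna2, Plxna4, the kinesin Kif5c (0.31), the transcriptional repressor Scrt2 (579 and 587 CPM against 976, 918 and 890), the histone H3f3b (0.35) and Neo1 had the highest CPM among the higher ones. Of the 7 alternatives that leave out a unit or library, the calls were lost in 6 for Adgrl1 and Chd3, 5 for Kif5c, 4 for Scrt2, 3 for H3f3b and Plxna2, 2 for Plxna4 and 1 for Gria2 and Tmsb4x, and that of Kif5c also without a filter (edgeR adjusted p = 0.066). Of 26 genes of the BAF complex 1 was higher (Bcl7c, log2 0.37), and of 15 of the NuRD complex 1 was higher (Chd5, 0.62) and 1 lower (Chd3), against 5.41% of all genes called, and these calls were lost in 3 to 6 of the 7 alternatives that leave out a unit or library. Of 17 genes of p53 signalling and apoptosis, 1 was lower (5.88%, against 2.72% of all genes tested). It was the survival factor Bcl2 (49.1 and 56.1 CPM against 21.7, 19.1 and 25.5). Of 15 area patterning genes 1 was higher (6.67%) and 2 were lower (13.3%), against 2.69% and 2.72% of all genes tested. The nuclear receptor Nr2f1 was higher (259 and 260 CPM against 393, 457 and 459). The teneurins Tenm2 (310 and 255 CPM against 99.3, 113 and 147) and Tenm3 (log2 -0.45) were lower. The calls of Nr2f1 and Tenm3 were lost in 2 and 5 of the 7 alternatives that leave out a unit or library.

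Promoter sequence was read as a description of the genes that moved. The motif TGACCA, or TGGTCA on the other strand, which the zinc fingers of BCL11A are known to bind, was searched in RefSeq windows of 300 bases (250 before to 50 after the gene start, GRCm38.p6) matched by symbol. It was present in 39 of 293 higher genes with a window (13.3%), in 34 of 299 lower genes (11.4%), in 1325 of 10483 tested genes (12.6%) and in 4153 of 27025 genes of the table (15.4%), and in 0 of the 7 lower layer 6 genes that had one. Shown are 3 windows that hold the motif, in capitals, of the transporter Slc17a6 (chr7:51621580-51621879, plus strand, from base -49), Pcp4 (chr16:96467356-96467655, plus strand, from base -139) and Hs3st2 (chr7:121392046-121392345, plus strand, from base -206). They are set beside the windows of Hs3st4 (chr7:123982578-123982877, plus strand) and Slit2 (chr5:47982905-47983204, plus strand), 2 genes with strong differences and no match.
Slc17a6: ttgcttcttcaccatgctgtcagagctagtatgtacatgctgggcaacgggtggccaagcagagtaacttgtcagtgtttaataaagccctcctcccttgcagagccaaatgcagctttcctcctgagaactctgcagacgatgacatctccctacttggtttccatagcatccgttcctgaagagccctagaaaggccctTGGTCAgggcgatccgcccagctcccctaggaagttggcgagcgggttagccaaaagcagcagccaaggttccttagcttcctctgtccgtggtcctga
Pcp4: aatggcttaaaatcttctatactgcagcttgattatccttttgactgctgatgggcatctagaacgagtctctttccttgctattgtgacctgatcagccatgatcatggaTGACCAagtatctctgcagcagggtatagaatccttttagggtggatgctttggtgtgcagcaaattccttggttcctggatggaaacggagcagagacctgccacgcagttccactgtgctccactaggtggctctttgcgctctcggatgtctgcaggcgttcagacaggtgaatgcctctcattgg
Hs3st2: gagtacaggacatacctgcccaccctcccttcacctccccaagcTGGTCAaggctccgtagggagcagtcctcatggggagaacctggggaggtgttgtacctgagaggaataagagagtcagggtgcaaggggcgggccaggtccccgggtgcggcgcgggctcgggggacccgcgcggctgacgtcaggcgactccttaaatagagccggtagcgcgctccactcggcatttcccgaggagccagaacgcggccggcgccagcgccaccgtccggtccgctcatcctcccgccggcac
Hs3st4: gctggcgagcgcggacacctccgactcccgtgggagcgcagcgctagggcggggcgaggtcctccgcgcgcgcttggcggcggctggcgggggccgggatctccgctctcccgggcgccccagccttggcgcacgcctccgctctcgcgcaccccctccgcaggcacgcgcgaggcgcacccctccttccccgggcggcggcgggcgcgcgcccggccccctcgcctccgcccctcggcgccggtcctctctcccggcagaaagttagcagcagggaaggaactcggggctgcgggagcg
Slit2: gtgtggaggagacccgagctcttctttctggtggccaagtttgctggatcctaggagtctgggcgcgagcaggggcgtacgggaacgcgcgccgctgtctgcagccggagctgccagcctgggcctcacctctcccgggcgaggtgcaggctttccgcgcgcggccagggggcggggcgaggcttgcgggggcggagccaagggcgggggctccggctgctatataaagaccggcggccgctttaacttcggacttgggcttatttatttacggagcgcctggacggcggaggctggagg
A match is a string of letters and not a shown binding site.

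Markers of other tissues were read beside these results, and their calls against 2.69% higher and 2.72% lower among all genes tested. These lists are short, so 1 call is a large share of most of them. Of 3 thalamus genes tested, 2 were higher: the LIM homeobox factor Lhx9 (3.09 and 1.39 CPM in Bcl11a-CKO against 13, 15.3 and 11.1) and the nuclear receptor Rora (3.32 and 3.75 CPM against 8.08, 8.59 and 9.64). The summed list ran from 8.89 to 9.02 CPM in Bcl11a-CKO and from 25.3 to 28.1 CPM in Bcl11a/b-DCKO, while the defining thalamic factor Gbx2 was at 0.893 CPM or less in every mutant unit and the list member Lhx8 at 0. Neither call held without the Bcl11a-CKO pair, where the log2 fold change of Lhx9 moved from 2.72 to 2.08. The Rora call was lost in 5 of the 7 alternatives that leave out a unit or library. What part such tissue had in other results was not tested. Of 9 striatum genes, the homeobox factor Meis2 was higher (329 and 337 CPM against 596, 555 and 514), and Foxp1 (42.5 and 56.5 CPM against 16.6, 21.8 and 20.9) and the phosphatase regulator Ppp1r1b (53.4 and 63.1 CPM against 18.3, 16.3 and 14.1, edgeR adjusted p = 0.107 without the Bcl11a-CKO pair) were lower, genes that cortical neurons are also known to express. The striatal factors Isl1 and Six3 were at 0 in every mutant unit.

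Of 5 hippocampus and hem genes, the Wnt mediator Lef1 was higher (log2 0.90, edgeR adjusted p = 0.135 without the Bcl11a-CKO pair) and the Wnt enhancer Rspo3 lower (31.6 and 34.3 CPM against 4.25, 4.89 and 11.2), with Wnt8b and Wnt3a at 0. Zbtb20, a hippocampal factor, stood at 182 and 99.8 CPM in Bcl11a-CKO and at 252, 250 and 15.4 CPM in Bcl11a/b-DCKO, so the third double mutant library stood apart and the summed list ran from 49.8 to 279 CPM there against 151 to 231 CPM. Of 16 interneuron genes 1 was lower (6.25%, against 2.72% of all genes tested), the neuropeptide Npy. Npy stood at 36.1 and 29.7 CPM in Bcl11a-CKO, at 8.08, 8.14 and 9.64 CPM in Bcl11a/b-DCKO and at 10.8 and 10.5 CPM in the control. Its single mutant units lay above both other groups. Astrocyte (7), oligodendrocyte (7), microglia (11), endothelium (10), meninges (7) and erythroid (9) lists had 0 calls by edgeR among the genes tested in brackets. Lists this short can hold 0 at the 5.41% called over all genes. At an unadjusted p under 0.05 they had 2, 1, 5, 4, 0 and 0 genes, beside 2406 of all 14947 genes tested. Another tool or sample choice called up to 1 higher and 1 lower astrocyte gene, 1 higher microglia gene and 2 lower endothelium genes. Summed microglia genes ran from 84.8 to 86.2 CPM in Bcl11a-CKO and from 103 to 119 CPM in Bcl11a/b-DCKO, and endothelium genes from 222 to 227 and from 174 to 180 CPM, and their part in the results above was not tested. Choroid plexus markers Ttr, Folr1 and Otx2 were at 0. Among 7 immediate early genes 1 was higher (14.3%, against 2.69% of all genes tested). It was the activity-dependent factor Npas4 (2.14 and 1.29 CPM against 6.59, 5.63 and 5.36). Its call was lost without the Bcl11a-CKO pair, where its log2 fold change moved from 1.85 to 1.43.

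The same genotypes were compared at E13.5, in other libraries. Both ages share one model and its estimate of the spread, and with the 3 E15.5 groups alone 1116 genes differed at E15.5, or 1011 with the 2 mutant groups alone. At E13.5 109 of 14947 genes passed (0.729%), 45 higher (0.301%) and 64 lower (0.428%). Of the 407 genes lower at E15.5, 309 (75.9%) had a negative log2 fold change at E13.5, against 51.3% of all tested genes, and 30 were called lower there. Of the 402 higher genes, 272 (67.7%) had a positive one, against 48.6%, and 20 were called higher. The 50 genes called the same way at both ages made up 45.9% of the E13.5 calls and 6.18% of the E15.5 calls, and 4 genes were called in opposite directions.

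Genes called lower at both ages included Bcl11b itself (log2 -2.52 ± 0.25 at E13.5, edgeR adjusted p = 0.000348), Cnr1 (-1.19 ± 0.11), Cacna1e (-2.47 ± 0.32), Slc17a7 (-1.22 ± 0.16), Dync1i1 (-3.27 ± 0.57), Tnr (-3.24 ± 0.60), Nlgn1 (-0.87 ± 0.18) and Map1b (-0.36 ± 0.07). In the layer 6 list 1 gene of 12 was called at E13.5, Ntsr1 (log2 -2.41 ± 0.44), and the median of the list was -0.72 there against -1.75 at E15.5. Scube2 (3.40 ± 0.28) and Uncx (2.08 ± 0.31) were called higher at both ages. Of the 4 genes called in opposite directions, Ephb1 was the guidance receptor: at E13.5 it stood at 13 ± 1.28 CPM in Bcl11a-CKO and at 32.8 ± 2.29 CPM in Bcl11a/b-DCKO (mean ± SD, n = 3 each), higher by 1.34 ± 0.14 on the log2 scale. The other 3, named after their values were seen, were Sphkap, Dpysl4 and Ppp2r2c.

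The difference between the ages was itself tested, and 216 genes passed (1.45%), 121 with a more positive (0.81%) and 95 with a more negative (0.636%) contrast at E15.5. They included 100 of the 402 higher and 86 of the 407 lower genes. Slit2 stood at 40.9 ± 2.7 CPM in Bcl11a-CKO and 46.7 ± 1.13 CPM in Bcl11a/b-DCKO at E13.5 (n = 3 each), a log2 fold change of 0.19 ± 0.09 that did not pass, so its contrast was 2.13 ± 0.13 larger at E15.5 (edgeR adjusted p = 1.55e-06). Fezf2 had a log2 fold change of -0.33 ± 0.10 at E13.5 and a contrast -1.04 more negative at E15.5 (edgeR adjusted p = 0.0023). In the layer 6 list, Zfpm2, Rprm and Tle4 had an age difference past the threshold and were more negative at E15.5. Hs3st4, Nxph3 and Ntsr1 did not (edgeR adjusted p = 0.88, 0.31 and 0.57).

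**Figure D5:**
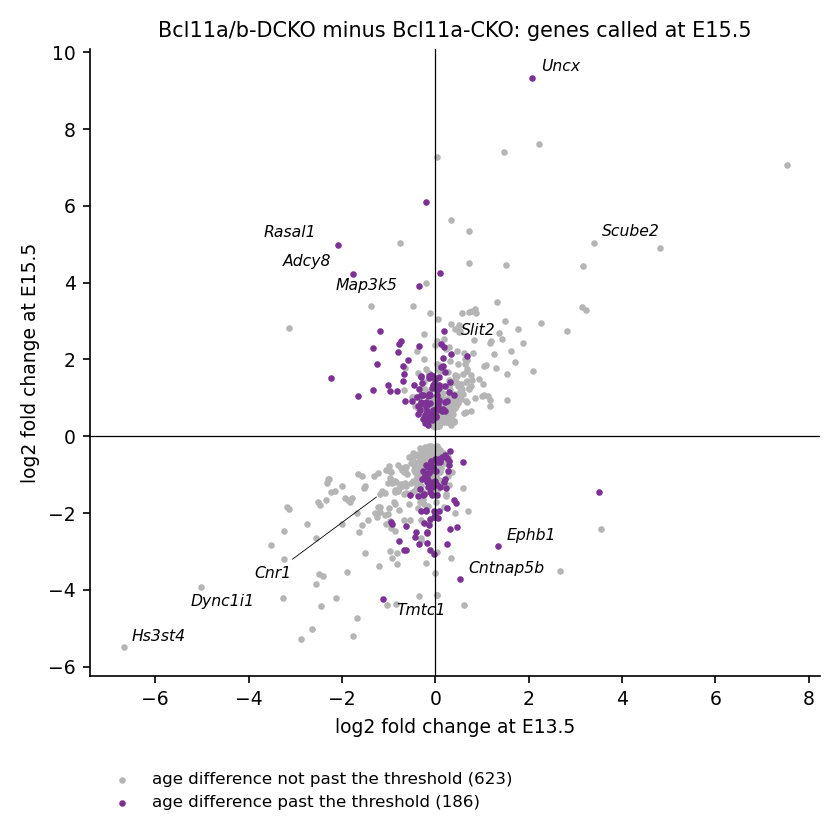
For the 809 genes that differed between the mutants at E15.5, the log2 fold change at E13.5 (horizontal axis) against that at E15.5 (vertical axis). Purple points (186) had a difference between the ages past the threshold and grey points (623) had not. Ephb1 lies on the positive side at E13.5 and on the negative side at E15.5, and Slit2 lies near 0 at E13.5.

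Strand use in the authors' counting is not given in the sources used here, and reads from overlapping genes cannot be told apart. Of the genes named, Bcl11a, Hs3st4, Hs3st2, Pappa2, Necab1, Jakmip3, Gm28756, Gm29253, Ephb1, Cux1, Eomes, Kcnab1, Tenm3, Zbtb20, Plxna1, Plxna4, Tnr, Tox, Foxp1, Rgma, Reln, Rspo3, Lef1, Nlgn1, Neurod1, Nefm, Nr2f1, Pcp4, Pcdh10, Cntnap4, Ppp1r1b, Rora, Kcnd3, Kcnq5, Scn9a, Gria2, Gria3, Bcl2, Bcl7c, Chd5, Adgrl1, Sox5, Syt6 and Xist share exonic bases with another annotated gene, so their counts are uncertain to that extent.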

How the data were processed

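The authors deposited raw counts of reads for 34745 genes in 18 embryonic libraries, and these were the values used. Tools listed in the submitters' processing notes are StringTie 1.3.0, HISAT2 2.0.4 and edgeR (no version), with the build mm10. For the counter, its settings and strand use, nothing was given in the sources used here. There were 0 count columns without a sample. The P0 libraries were not used here, and results for some genes are not reported here.

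Libraries were grouped by their titles. At E15.5, libraries of 1 genotype with the same title number and the letters R and L were summed as 1 unit: their chi-square per gene was 3.82 in Bcl11a-CKO, against 5.13 to 6.55 for other pairs of a mutant genotype, so they differ beyond sampling noise. That left 16 units in 6 groups, fitted in one model with edgeR 4.0.16 (R 4.3.3), TMM scaling, filterByExpr, glmQLFit and glmQLFTest. Of all genes 14947 passed the filter, with a common biological coefficient of variation of 0.139, and 10 residual degrees of freedom remained. Benjamini-Hochberg adjustment ran over every gene tested, at a threshold of 0.05, and every adjusted p comes from this test unless another tool is named. Each SE was derived from this test, as the absolute log2 fold change divided by the square root of the F statistic. It is not a separately fitted standard error. CPM values are per unit after TMM scaling, and per library in the plots. Ratios with 3 or fewer counts in a group have an exact 95% interval, and a group at 0 was set to a floor of 3 counts, both for counting error only.

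Named genes are Bcl11a, Bcl11b, the 12 highest and 12 lowest by fold change (at least 5 CPM in the higher group, no overlap of units), the 6 with the highest CPM in each direction, up to 6 called members per list, and 4 per direction for the age difference. Some other list members are given outside these rules, among them Nrp2, Epha7, Epha8, Pcdh9, Cdh6, Cdh2, Celsr2 and Syt1. The count of named genes that kept their call does not cover them. The members and the 34 gene lists were chosen with earlier results of these data known. Alternatives were RLE scaling, DESeq2 1.42.0, limma-voom (limma 3.58.1), no filter, fewer groups, libraries of a pair kept apart, and leaving out each library or the pair. The scripts were tested on simulated counts. Loci are those of the deposited table, and exon overlaps are from GENCODE M21 (GRCm38).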

Additional observations from a re-analysis of the deposited data

Results flagged for a closer look

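The contrast between the mutants differed between E15.5 and E13.5, by a test of the difference itself, in 216 genes, and among the named genes in those that follow. Values are E15.5 minus E13.5 differences in log2 fold change, all past an edgeR adjusted p of 0.05. Among guidance genes the contrast was more positive at E15.5 for Slit2 (2.13), Sema3c (1.38), Plxna4 (1.24), Neo1 (1.16), Unc5b (1.16), Plxna2 (0.96) and Efnb2 (0.45), and more negative for Ephb1 (-4.21), Rgma (-1.34), Dcc (-0.79) and Plxna1 (-0.56). Ephb1 was called in opposite directions at the 2 ages.

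Among genes of the layer lists the contrast was more negative at E15.5 for Rorb (-2.03), Zfpm2 (-1.93), Rprm (-1.58), Tox (-1.44), Tle4 (-1.30) and Fezf2 (-1.04), and more positive for Pcp4 (2.35). It was also more negative for Foxp1 (-1.16) of the striatum list, Tenm2 (-1.26) of the area patterning list and the radial glia phosphatase Ptprz1 (-0.78). For Meis2 of the striatum list the contrast was more positive (0.71). Among adhesion and excitability genes it was more positive for Scn1a (2.29), Cntnap4 (2.14), Pcdh10 (1.17) and Cdh4 (0.81).

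Among the other named genes, differences past the threshold were found for genes that were low in at least one group: Uncx (7.25), Rasal1 (7.05), Adcy8 (5.97) and Map3k5 (4.25) upward, and Cntnap5b (-4.25) and Tmtc1 (-3.12) downward. The value of Uncx, which had 0 counts in Bcl11a-CKO at E15.5, depends on the fit's handling of zeros and is no measured size.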

How the results depend on the processing

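No paired analysis was possible because the E15.5 mutant groups share no title number. The E15.5 count of 809 genes ranged from 353 to 784 when 1 library or the Bcl11a-CKO pair was left out, with 418 without Bcl11a-CKO replicate 1 and 353 without its pair. Leaving out the pair also moved the share of higher calls to 40.2%, and under the other scalings and tools it was 45.9% to 51.7%. A Bcl11a-CKO group of 1 unit is assumed to vary like the other groups. The other alternatives gave 769 (no filter) to 1132 genes (pair kept apart). The E13.5 count of 109 became 231 with DESeq2 and 16 with only the 2 mutant groups. The age difference of 216 became 339 with DESeq2, 336 with the pair kept apart, and ranged from 99 to 217 in the leave-one-out fits, with 128 without Bcl11a/b-DCKO replicate 2, 116 without Bcl11a-CKO replicate 1 and 99 without the pair. The causes were not tested. Of 108 named genes that passed, 58 kept their call in all 14 alternatives, 59 in all 7 that leave out a unit or library, and 0 changed direction.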
